A study of Mus musculus with 6 samples.

Results

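The genes described here are the imprinted growth factor gene Igf2, its non-coding neighbour H19, the genes of the Igf2 mRNA-binding proteins Igf2bp1, Igf2bp2 and Igf2bp3, and Igf2r, the receptor that clears IGF2. They were chosen by symbol: a feature of the array counted if the platform annotation gave it exactly 1 gene symbol and that symbol was 1 of these 6. Of the 6 genes, 5 had such a feature, among 20261 genes named in this way on the array; all 5 passed the filter on dim features, as did 16824 genes in all. Igf2bp2 was named by no feature in the annotation used and is not analysed here. The choice was made with the differences between tumour and non-tumorous liver on these arrays already known, so the group differences of the 5 genes are given as a description, without a test.

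Tumour samples 405, 483 and 616 were hepatocellular carcinomas, and non-tumour samples 405, 483 and 623 were non-tumorous liver, with 1 Affymetrix array each. All 6 came from untreated C57BL/6 mice aged 24 months with the hepatocyte knockout SRSF3HKO of Srsf3, the gene of a splicing factor, so the non-tumorous liver carried the deletion too and no liver with intact Srsf3 was analysed here. The labels name neither the promoter that drove the deletion nor the animals, and the numbers 405 and 483 occur in both groups. Every SD given here therefore measures the spread between these samples, which may be partly technical. The SEs and p-values rest on the same samples. They come from limma, which draws each gene's spread towards that of other genes of like intensity.

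Igf2 and H19 lie next to each other and are imprinted in opposite ways: Igf2 is expressed from the paternal allele and H19 from the maternal one, and both draw on shared enhancers under a common control region. Both are abundant in fetal liver and are silenced in hepatocytes after birth, and IGF2 returns in a share of liver cancers. The IGF2BP proteins bind Igf2 mRNA and other transcripts and govern their stability, transport and translation; they too are mainly fetal, and IGF2BP3 is known from many carcinomas. Igf2r takes IGF2 from the cell surface to lysosomes and in mice is expressed from the maternal allele.

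Both imprinted transcripts also carry a microRNA, miR-675 in H19 and miR-483 in an intron of Igf2, so a change in either gene can alter a small RNA as well. Neither microRNA had a feature with 1 gene symbol, and their levels were not analysed here. Their mature sequences from RefSeq (GRCm38.p6) are shown 5′ to 3′ because they are the part of H19 and Igf2 that pairs with target mRNAs. The seed, bases 2 to 8, is in capitals:
mmu-miR-675-5p: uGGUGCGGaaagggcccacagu
mmu-miR-675-3p: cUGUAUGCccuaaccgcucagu
mmu-miR-483-5p: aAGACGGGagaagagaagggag
mmu-miR-483-3p: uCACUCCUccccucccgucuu
The 4 seeds differed from each other, and each was found in only 1 mature mouse microRNA of the table.

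The start regions of Igf2 and Igf2bp3 are shown because these were, with H19, the genes of the set whose levels spread most over the arrays. RefSeq gave 4 starts for Igf2, and the most downstream is printed with the 250 bases before the start on the minus strand, chr7:142657497-142657746 (GRCm38.p6), beside the same window of Igf2bp3, chr6:49214955-49215204, also on the minus strand. Capitals mark the motifs CACGTG (an E-box), GGGCGG (a GC box), CCAAT and ATAAAA, searched on both strands; the motif TATAAA, which can overlap ATAAAA, was searched as well and found in neither.
Igf2: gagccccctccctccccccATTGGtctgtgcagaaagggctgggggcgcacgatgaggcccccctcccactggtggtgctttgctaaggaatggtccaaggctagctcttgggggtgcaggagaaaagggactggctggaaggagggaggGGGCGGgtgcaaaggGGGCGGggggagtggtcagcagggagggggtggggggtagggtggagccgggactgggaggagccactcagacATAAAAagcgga
Igf2bp3: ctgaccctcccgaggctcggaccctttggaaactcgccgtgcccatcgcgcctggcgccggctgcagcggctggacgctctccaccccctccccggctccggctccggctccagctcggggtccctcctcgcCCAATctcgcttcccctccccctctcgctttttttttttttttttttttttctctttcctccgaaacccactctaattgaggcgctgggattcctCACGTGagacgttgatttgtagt
The Igf2 window held 2 GC boxes, 1 CCAAT on the other strand and 1 ATAAAA close to the start. The Igf2bp3 window held 1 E-box and 1 CCAAT. Of 32851 mouse windows of this length, 6.02% held CACGTG, 32.7% GGGCGG, 33.8% CCAAT and 17.0% ATAAAA. The other Igf2 starts held none of the 4 motifs in both upstream windows and 1 GC box in the remaining one. The array feature of Igf2 does not tell these starts apart.

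The deposited values were intensities normalized by the authors with PLIER, an Affymetrix method of summarising probes. Medians over the features with 1 gene symbol still ran from 83.6 to 151 in tumour and from 122 to 197 in non-tumour. Levels are therefore given both as deposited and as log2(intensity + 16) after quantile normalization of the 6 arrays, and differences are tumour minus non-tumour in log2 units. Of the hepatocyte markers 8 of 10 were measured. Albumin (Alb) lay at 13.22 to 13.33 log2 units in tumour and 13.26 to 13.33 in non-tumour. The summed normalized intensity of the 8 was 45499 to 60018 in tumour against 57092 to 62189 in non-tumour. Quantile normalization gives the brightest features of every array the same values, which limits how far Alb and this sum can differ. They therefore say little about hepatocyte content. Non-tumour 623 differed from the other 5 in its sex markers. Its level of Xist, which coats the silent X chromosome of females, was 5.17, against 10.55 to 12.21 in tumour and 12.05 to 12.30 in the other non-tumour samples. Its level of Eif2s3y, a gene of the Y chromosome, was 8.69, and no other sample exceeded 5.10. The differences of the 5 genes are therefore also given without that array.

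Igf2 encodes the fetal insulin-like growth factor. Its intensity was 5.49, 3903 and 362 in tumour 405, 483 and 616, against 416, 43.6 and 267 in non-tumour 405, 483 and 623. One tumour held the highest level of the series, another held the lowest, and the non-tumour samples lay between them. Normalized levels were 4.64, 11.91 and 8.72 in the tumours and 8.82, 5.95 and 7.57 in non-tumour, with means of 8.42 ± 3.64 and 7.44 ± 1.44 (SD, n = 3 each). The mean difference was 0.98, well inside the spread between tumours, and it was 1.06 without non-tumour 623. A single sample set its direction: it was -0.76 without tumour 483 and 2.84 without tumour 405.

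The spread of Igf2 was among the widest on the array. Its levels spanned 7.27 log2 units over the 6 arrays, and 3 of the 16824 genes, Igf2 included, spanned as much; the median gene spanned 0.84. The SD of 3.64 between tumours was larger than that of 99.99% of genes, where the median gene had 0.22. Tumour 483 lay 3.10 above the next array for Igf2, a lead that 12 genes had in any array and 3 genes, Igf2 included, had in tumour 483. Tumour 405, where Igf2 was lowest, also had the lowest summed level of hepatocyte markers (45499) and of stellate cell markers (10 of 10 measured, 2325 to 8494 in tumour and 5763 to 9374 in non-tumour). It was lowest too for markers of macrophages (887), endothelial cells (3674) and lymphocytes (764), and in median intensity as deposited (83.6). It was not lowest for those of cholangiocytes, neutrophils, erythroid cells, adipocytes and muscle, or cycling cells. The part of these in the level of Igf2 was not tested. In bulk tissue, fewer expressing cells and less RNA per cell cannot be told apart.

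H19, a long non-coding RNA, was bright on 5 of the 6 arrays. Its intensity was 1961, 5015 and 7392 in tumour 405, 483 and 616, against 5192, 135 and 3433 in non-tumour 405, 483 and 623. The low sample was a non-tumour one, and the groups overlapped: tumour 405 lay below non-tumour 405 and 623. Normalized levels were 11.09, 12.24 and 12.78 in tumour and 12.55, 7.36 and 11.13 in non-tumour, with means of 12.04 ± 0.87 and 10.35 ± 2.68 (SD, n = 3 each). The difference of 1.69 rested on non-tumour 483: it was 0.19 without that sample, 2.85 without non-tumour 405 and 2.08 without non-tumour 623.

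Non-tumour 483 lay 3.72 log2 units below the next array for H19. Over all genes 6 had a lowest array that far below the next, and in 4 of these, H19 included, it was non-tumour 483. The summed level of the hepatocyte markers was highest in the same sample (62189). H19 was bright in 2 of the 3 non-tumorous livers, at intensities within the range of the tumours.

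**Figure D1:**
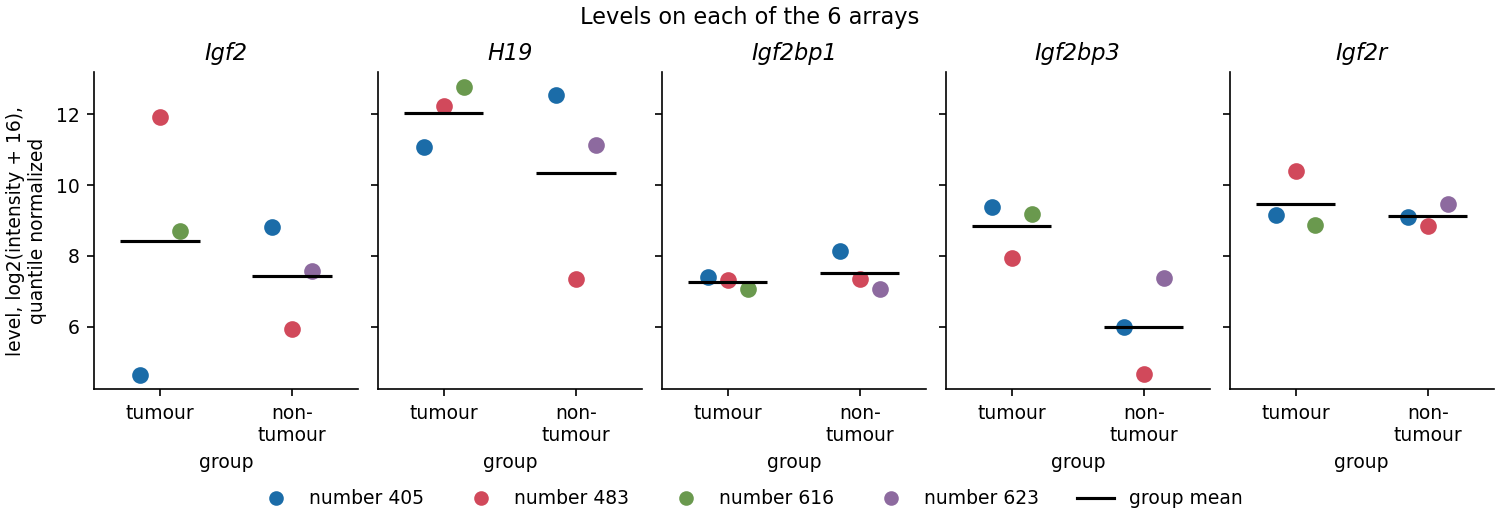
Level of each gene on each array as log2(intensity + 16) after quantile normalization, tumour left and non-tumour right, coloured by the number in the labels, with a line at the group mean. Igf2 runs from 4.64 to 11.91 within the tumours, H19 is low only in non-tumour 483 at 7.36, and Igf2bp3 is the 1 gene whose groups do not overlap.

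Igf2bp3 was the gene of the set that separated the groups. Its intensity was 474, 259 and 524 in tumour 405, 483 and 616, against 71.4, 8.83 and 225 in non-tumour 405, 483 and 623. All tumours lay above all non-tumour samples, although the lowest tumour, at 259, was close to the highest non-tumour sample, at 225. Normalized levels were 9.39, 7.94 and 9.18 in tumour and 5.98, 4.66 and 7.37 in non-tumour, with means of 8.84 ± 0.79 and 6.01 ± 1.36 (SD, n = 3 each). The difference was 2.83, and 2.19 to 3.41 with any 1 sample left out, the smallest without non-tumour 483 and the largest without non-tumour 623. Igf2bp3 was 1 of 5 genes of the set with groups that did not overlap, and it was picked with that known; over all genes 3.93% were higher in tumour and 3.89% lower without overlap. As deposited it did not overlap either, beside 0.137% of genes higher and 11.7% lower.

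Other measures are set beside Igf2bp3 here, and they followed it only in part. Non-tumour 483 was again the lowest, 1.32 below non-tumour 405. Non-tumour 623, the sample that differed in sex, was the highest of its group. Of the markers of adipocytes and muscle 7 of 8 were measured, and their summed normalized intensity was 2508 to 2931 in tumour against 1349 to 1900 in non-tumour. Fabp4, a fatty acid-binding protein gene, carried this difference (1.81), and the other 6 markers differed by -0.33 to -0.0048. Within non-tumour the sum was lowest in sample 623, where Igf2bp3 was highest. Markers of cycling cells, 6 of 7 measured, summed to 982 to 1970 in tumour and 551 to 1702 in non-tumour, lowest in non-tumour 483. Unlike Igf2bp3, this sum was higher in non-tumour 405 (1702) than in tumour 483 (982). The part of these in the difference of Igf2bp3 was not tested.

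Igf2bp1, an mRNA-binding protein gene used mainly in the embryo, lay at middling intensities in both groups. Its brighter feature had intensities of 96.0, 164 and 85.9 in tumour 405, 483 and 616, against 299, 133 and 172 in non-tumour 405, 483 and 623. The medians of these arrays were 83.6, 151 and 98.6 in tumour and 183, 122 and 197 in non-tumour. Normalized levels of 7.39, 7.33 and 7.06 in tumour overlapped with 8.14, 7.34 and 7.07 in non-tumour, and the means were 7.26 ± 0.18 and 7.52 ± 0.56 (SD, n = 3 each). The difference of -0.26 lay within the spread of the non-tumour samples, and its sign rested on non-tumour 405: without it the difference was 0.06, and without non-tumour 623 it was -0.46. As deposited, the feature ordered 13 of the 15 pairs of arrays as the median intensity of the arrays did, against 11 for Igf2r, 10 for Igf2, 8 for H19 and 5 for Igf2bp3. After quantile normalization it was 7 for Igf2bp1, 9 for Igf2r, 10 for Igf2, 8 for H19 and 4 for Igf2bp3.

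A second feature of Igf2bp1 did not pass the filter, which asked for a mean intensity of at least 62.3. It had 7.18, 21.8 and 20.1 in tumour 405, 483 and 616, against 7.78, 0.00883 and 18.2 in non-tumour 405, 483 and 623, and the groups overlapped. With both features averaged by their median the difference of Igf2bp1 was 0.24, the opposite sign of the brighter feature alone. The direction for Igf2bp1 is therefore not settled by these arrays.

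Igf2r, the mannose 6-phosphate and IGF2 receptor, was measured on all arrays, with groups that overlapped. Its intensity was 393, 1466 and 411 in tumour 405, 483 and 616, against 491, 366 and 1240 in non-tumour 405, 483 and 623. One sample of each group stood above the rest as deposited, tumour 483 and non-tumour 623. Normalized levels of 9.15, 10.40 and 8.87 in tumour overlapped with 9.11, 8.86 and 9.46 in non-tumour, with means of 9.47 ± 0.81 and 9.14 ± 0.30 (SD, n = 3 each). The difference was 0.33, changed to -0.13 without tumour 483 and was 0.49 without non-tumour 623. The same samples had the highest sum of their group in Kupffer cell and macrophage markers, 7 of 8 measured. These sums ran from 887 to 8786 in tumour and from 2186 to 10105 in non-tumour. Endothelial markers, 8 of 8 measured, were highest there too, within 3674 to 8168 and 3884 to 5944. So were erythroid markers, 2 of 5 measured, within 886 to 3074 and 995 to 1271. In non-tumour 483, where Igf2r was lowest, the macrophage sum was 6172 and the endothelial sum 3884. The part of these cells in the level of Igf2r was not tested.

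**Figure D2:**
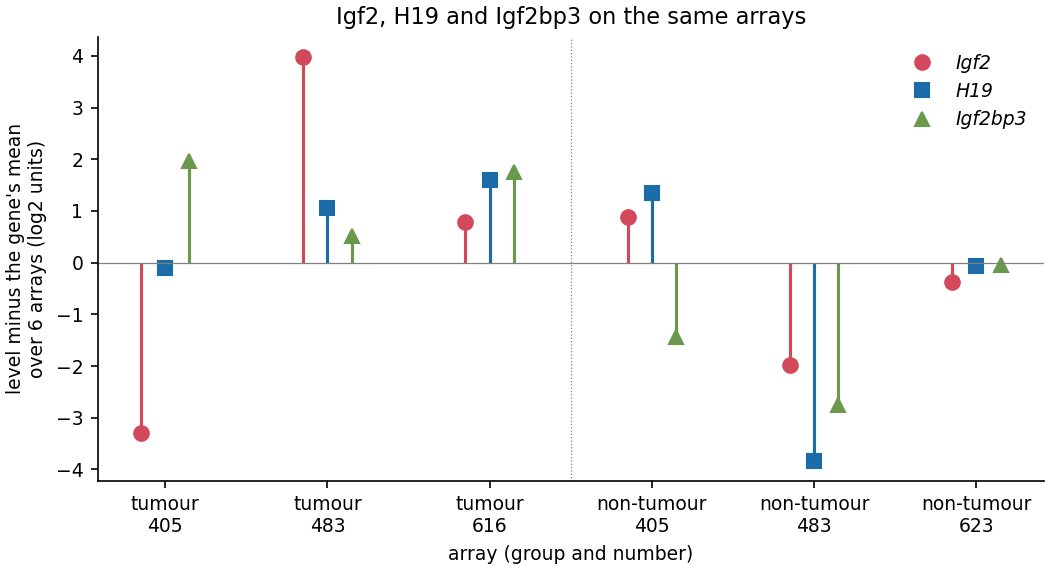
Level of Igf2, H19 and Igf2bp3 on each array minus that gene's mean over the 6 arrays, in log2 units, tumour left of the dotted line and non-tumour right of it. Igf2 and H19 lie on the same side of their means on all 6 arrays, and Igf2bp3 lies on the other side from Igf2 in tumour 405 and non-tumour 405.

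The imprinted pair lay on the same side of its own mean in each sample, but by unequal amounts. Relative to their means over the 6 arrays, Igf2 and H19 stood at 3.98 and 1.05 in tumour 483, at 0.78 and 1.59 in tumour 616, and at 0.88 and 1.35 in non-tumour 405. They stood at -3.29 and -0.11 in tumour 405, at -1.98 and -3.83 in non-tumour 483, and at -0.37 and -0.06 in non-tumour 623. In tumour 405, then, Igf2 was at the bottom of its range while H19 was close to its average. In non-tumour 483 both were low.

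The order of the arrays was compared next. Igf2 and H19 ordered 11 of the 15 pairs of arrays alike, 2 of 3 among the tumours, 3 of 3 among the non-tumour samples and 6 of 9 between the groups. The median gene ordered 7 pairs as Igf2 did, and 10.2% of genes ordered at least 11 so; with H19 it was 8.14% of genes. The count was 11 as deposited and 12 with each array centred on its median. It is given as a description, since the pair was chosen for this pattern and 4 of the arrays share a number in pairs.

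The order of the arrays by Igf2bp3 was only slightly less like that by Igf2 than like that by H19. Igf2bp3 and Igf2 ordered 7 of the 15 pairs alike and 0 of 3 among the tumours, where Igf2bp3 was highest in tumour 405, the sample with least Igf2, and lowest in tumour 483, the sample with most. Igf2bp3 and H19 ordered 9 pairs alike, 10 as deposited and 11 with median centring. At least 9 pairs were ordered as H19 did by 30.1% of genes and as Igf2bp3 did by 35.1%. H19 and Igf2r ordered 8 pairs alike. Igf2r ordered 10 pairs as Igf2 did and 10 as Igf2bp3 did. At least 10 were ordered as Igf2 did by 19.8% of genes, as Igf2bp3 did by 25.7% and as Igf2r did by 18.9%. Igf2bp1 ordered 6 pairs as each of Igf2, H19 and Igf2bp3 did and 7 as Igf2r did. The median gene ordered 7 pairs like each of Igf2, H19, Igf2bp3 and Igf2r, and 8 like Igf2bp1.

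Tumour and non-tumour samples with the same number gave opposite differences for the imprinted pair. For number 405 tumour minus non-tumour was -4.18 for Igf2 and -1.46 for H19. For number 483 it was 5.96 for Igf2 and 4.88 for H19. Igf2bp3 was higher in the tumour for both numbers, by 3.40 for 405 and by 3.28 for 483. Igf2r differed by 0.04 and 1.54, and Igf2bp1 by -0.75 and -0.01. The labels do not say that a number stands for 1 animal.

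Other genes with like patterns were sought by the mean absolute difference per array between centred profiles, over the 6 arrays. For Igf2bp3 the nearest were Lpcat4 (0.41 log2 units), Wfdc2 (0.44) and Esco2 (0.44). For H19 they were Cacna1b (0.58), Cdhr2 (0.61) and Elapor1 (0.64), all with their lowest level in non-tumour 483, between 5.54 and 6.99. The nearest genes to Igf2 were farther off: Lypd8, Msmo1 and Nsdhl differed from it by 1.20, 1.25 and 1.25 per array. H19 and Igf2 differed by 1.59 per array, which made H19 the 192nd nearest gene to Igf2 but Igf2 only the 15432nd nearest to H19. Igf2bp3 was nearer to H19, at 1.11 and rank 160. This distance was not scaled to the span of a gene, so a gene that spans as much as Igf2 lies far from most others. Igf2r, which spanned only 1.54 log2 units, ranked 690th from H19. The ranks therefore do not tell a different pattern from a wider span.

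**Figure D3:**
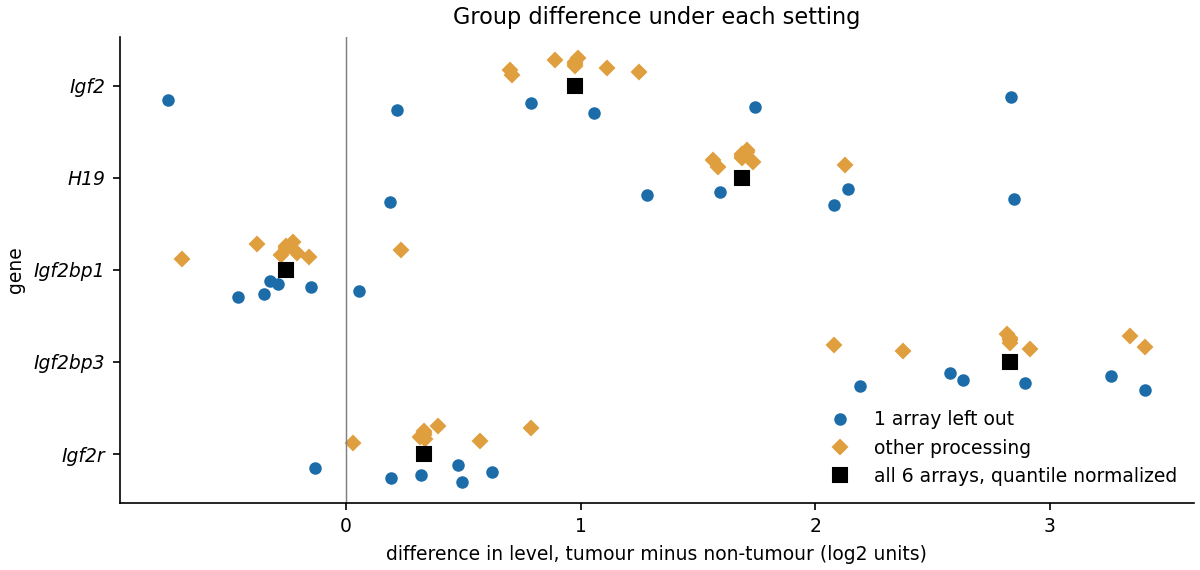
Difference in level, tumour minus non-tumour in log2 units, for each gene with all 6 arrays (squares), with 1 array left out (circles) and under other processing (diamonds). Igf2 runs from -0.76 to 2.84 and H19 from 0.19 to 2.85 with 1 array left out, and Igf2bp3 stays between 2.08 and 3.41 under every setting shown.

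The rest of the IGF2 pathway was described from 10 written lists that hold 138 further genes, of which 117 passed the filter. limma found 0 of the 117 and 0 of all 16824 genes different between tumour and non-tumour (0% called, smallest adjusted p = 0.914). At an unadjusted p under 0.05, 1 of the 117 was higher and 3 were lower, against 2.66% and 1% of all genes. Groups did not overlap for 2 of the 117 higher in tumour (1.71%) and 9 lower (7.69%), beside 3.93% and 3.89% of all genes, and 4 of the 11 also did not overlap with arrays centred on their medians and 1 as deposited. The median difference was -0.14 over the 117 and -0.05 over all genes. Signs of the 117 are counted below after quantile normalization, and the share of each sign over all genes was not taken. Of these genes 43 are named by rule, and their adjusted p ran from 0.914 to 0.963 (limma). On the deposited scale, where the median gene differed by -0.48, the sign was negative for Map3k4, Ctcf, Zhx2, Peg10 and Ybx1, which are given below with positive differences. With arrays centred on their medians, where the median gene differed by 0.06, the sign was positive for Igf1, Igfbp4, Cdkn1c, Plg, Slc38a4 and Ctnnb1, which are given below with negative ones.

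Among the 16 measured ligands, receptors and binding proteins, 8 differences were positive and 8 negative, with a median of -0.03. Igf1, the postnatal growth factor made by hepatocytes, lay at 12.35, 11.74 and 11.57 in tumour 405, 483 and 616, against 12.18, 12.51 and 11.98 in non-tumour 405, 483 and 623, and the groups overlapped. Igf1r, the receptor through which IGF1 and IGF2 signal, lay at 6.48, 7.60 and 9.26 in tumour and at 6.18, 7.47 and 7.39 in non-tumour, highest in tumour 616. Insr, the insulin receptor, whose A form also binds IGF2, was the 1 gene of this list without overlap: it lay at 9.50, 10.12 and 9.75 in tumour and at 11.22, 10.43 and 10.13 in non-tumour. Over all genes 3.89% were lower without overlap, and the Insr groups overlapped as deposited but not with median centring. The difference of Insr was -0.80 ± 0.35 (SE, n = 3 each, limma adjusted p = 0.914). Igfbp3, the main carrier of IGFs in serum, differed by 1.36 ± 0.73 and Igfbp4 by -0.35 ± 0.25, both with overlap.

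Downstream of the receptors 17 of 21 genes were measured, 5 with a positive difference and a median of -0.24. Irs2, a docking protein of insulin and IGF receptors, differed by -0.79 ± 0.41 and Gsk3b, a kinase restrained by AKT, by -0.83 ± 0.38 (SE). After quantile normalization 3 of the 17 were lower without overlap and 1 was higher, beside 3.89% and 3.93% of all genes. Pik3ca and Pik3r1, the catalytic and regulatory subunits of PI3-kinase, were among the lower ones, at -0.41 ± 0.25 and -0.55 ± 0.29. Akt2, a gene of an AKT kinase, was the higher one, at 0.27. The 3 lower genes overlapped as deposited and with median centring, and Akt2 as deposited only. None of these passed the test.

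Most neighbours of the pair in the imprinted domain had negative differences after quantile normalization. Of 21 measured, 6 differences were positive, and the median was -0.14, beside -0.05 over all genes. Phlda2, an imprinted brake on placental growth, had the low non-tumour sample of H19: it lay at 10.99, 9.85 and 9.80 in tumour 405, 483 and 616, against 10.01, 5.55 and 9.78 in non-tumour 405, 483 and 623. Its groups overlapped, and its difference was 1.77 ± 1.08 (SE). Dusp8, a phosphatase of MAP kinases, had groups that did not overlap, at 8.22, 8.10 and 8.45 in tumour against 7.40, 7.74 and 7.42 in non-tumour. Its difference was 0.74 ± 0.22, and 0.28 as deposited, where the groups overlapped. Cdkn1c, an imprinted inhibitor of the cell cycle, differed by -0.14 ± 0.24. Kcnq1ot1, the non-coding RNA that silences the adjacent imprinted domain, differed by -0.74 ± 0.35 (-1.11 without non-tumour 623), and the leukocyte gene Lsp1 by -0.32 ± 0.26.

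Around Igf2r, 5 of 8 neighbours were measured, 2 with a positive difference. Mas1, a G protein-coupled receptor, lay at 8.84, 9.81 and 8.39 in tumour 405, 483 and 616, against 5.53, 5.71 and 9.49 in non-tumour 405, 483 and 623. Its groups overlapped through non-tumour 623, the sample that differed in sex. The difference was 2.10 ± 0.97 (SE), and 3.29 without that sample. Plg, the plasminogen gene, differed by -0.32 ± 0.29, Slc22a2, a cation transporter, by -0.49 ± 0.87 (-1.03 without non-tumour 623), and the kinase gene Map3k4 by 0.36 ± 0.34 (SE).

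Factors that maintain imprints or silence fetal liver genes showed no call. Of 13 imprinting regulators measured, 1 difference was positive after quantile normalization, and the median was -0.17, beside -0.05 over all genes. The positive one was that of Ctcf, whose protein insulates Igf2 from the shared enhancers, at 0.09 ± 0.27. Ctcfl, the germline relative of Ctcf, differed by -0.23 ± 0.22, the imprint-protecting zinc finger Zfp57 by -0.37 ± 0.36, and the demethylating enzymes Tet2 and Tet3 by -0.49 ± 0.48 and -0.52 ± 0.30 (SE). Of 11 genes measured for the silencing of fetal liver genes 3 differences were positive, with a median of -0.57. Zhx2, which represses H19, Afp and Gpc3 in adult mouse liver, lay at 9.74, 9.56 and 9.02 in tumour 405, 483 and 616, against 9.75, 9.08 and 9.25 in non-tumour 405, 483 and 623. Zbtb20, a repressor of Afp, differed by -0.57 ± 0.30, its groups overlapping, and Zhx3 and Zfhx3, other zinc-finger homeobox genes, by -0.60 ± 0.35 and -0.57 ± 0.36.

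Other fetal genes under this control had their highest levels in non-tumour samples. Gpc3, the proteoglycan glypican 3, lay at 6.39, 6.70 and 6.50 in tumour 405, 483 and 616, against 12.80, 6.76 and 10.36 in non-tumour 405, 483 and 623. Afp, alpha-fetoprotein, lay at 5.95, 5.29 and 7.04 in tumour and at 10.92, 5.40 and 5.88 in non-tumour. After quantile normalization the Gpc3 groups did not overlap, though the tumours lay just below non-tumour 483, the sample in which H19 was low. Non-tumour 405 was the highest array for both, and it was the highest non-tumour array for Igf2 and H19 too. Gpc3 and Afp were called lower on the deposited scale (limma adjusted p = 2.42e-11 and 0.0298), where 0.0832% of genes were called higher and 0.262% lower. On that scale the Gpc3 groups overlapped and limma's prior outweighed each gene's own spread. Afp differed by -1.30 ± 1.29 (SE) after quantile normalization, by 0.46 without non-tumour 405 and by -2.04 without non-tumour 623. Over the alternatives their adjusted p ran from these values to 0.9999.

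Of the wider imprinted network linked to H19, 13 of 14 genes were measured, 5 with a positive difference and a median of -0.14. Dlk1, a paternally expressed NOTCH ligand of fetal liver, lay at 7.80, 7.92 and 7.78 in tumour 405, 483 and 616, against 8.27, 7.91 and 7.74 in non-tumour 405, 483 and 623. Mest, a paternally expressed hydrolase, differed by 0.66 ± 0.33, Peg10, a retrotransposon-derived gene, by 0.36 ± 0.25, and Peg3, a zinc-finger gene, by -0.56 ± 0.46 (SE). Slc38a4, an amino acid transporter imprinted in mice, differed by -0.35 ± 0.17 without overlap, and by 0.12 with overlap when arrays were centred on their medians.

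Groups did not overlap for 2 of 8 measured genes of the LIN28 and let-7 axis, Dicer1 and Tut7, and for 1 of 16 partners and bound mRNAs of the IGF2BP proteins, Stau2, all lower in tumour, beside 3.89% of all genes. All 3 overlapped as deposited and with median centring. Lin28b, an inhibitor of let-7 processing, lay at 6.63, 6.49 and 6.41 in tumour 405, 483 and 616, against 6.61, 6.48 and 6.64 in non-tumour 405, 483 and 623. Hmga2, a let-7 target, differed by -0.13 ± 0.21, and Trim71, another, by -0.11 ± 0.18. Dicer1, the nuclease that matures microRNAs, lay at 8.91, 9.74 and 9.55 in tumour and at 10.30, 10.26 and 10.09 in non-tumour, without overlap (difference -0.82 ± 0.30, limma adjusted p = 0.914). Tut7, a uridyl transferase of microRNA precursors, differed by -0.58 ± 0.26. Of the 8 genes in this list 1 difference was positive, and the median was -0.09. Among 16 binding partners and bound mRNAs 7 were positive, and the median was -0.09. Ybx1, an mRNA-binding partner of IGF2BP1, differed by 0.41 ± 0.23, the transport protein Stau2 by -0.32 ± 0.23, and the bound mRNAs Actb and Ctnnb1 by -0.30 ± 0.28 and -0.32 ± 0.27 (SE).

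**Figure D4:**
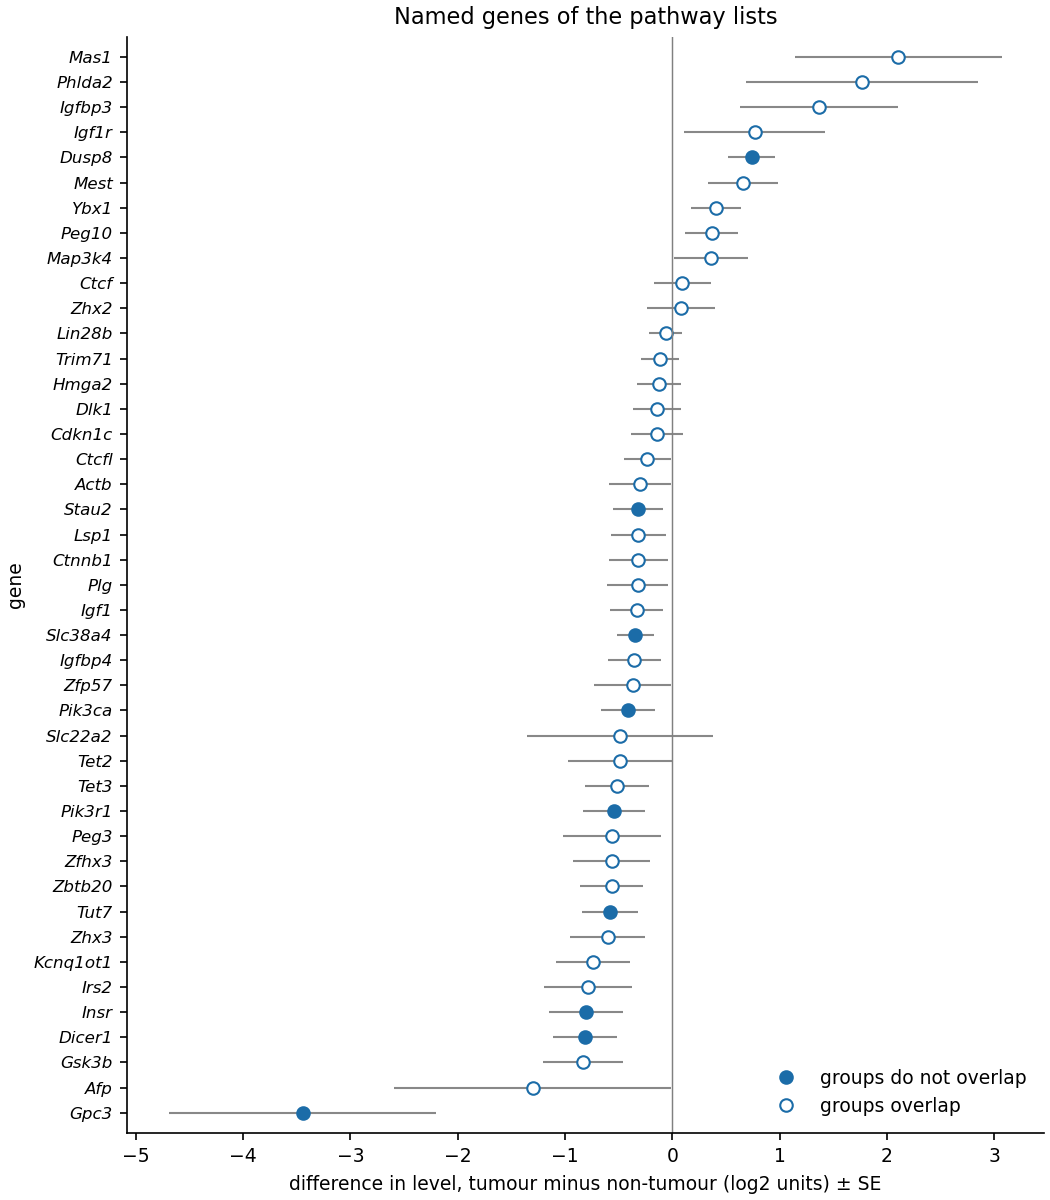
Difference in level, tumour minus non-tumour in log2 units with its SE, for the 43 named genes of the pathway lists, with filled points where the groups do not overlap. Mas1, Phlda2 and Igfbp3 have the largest positive differences with groups that overlap, Gpc3 has the most negative one, and 0 of the 43 passed the test.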

How the data were processed

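Total RNA of 6 liver samples was hybridised to Affymetrix arrays, 1 per sample. Intensities were deposited on a linear scale after PLIER normalization, as the labels state, and the submitters' processing notes name mm9. The PLIER version is not given in the sources used here. Sequences were RefSeq's, on GRCm38.p6. The table held 238609 features, of which 24343 had exactly 1 gene symbol, 1797 several and 212469 none; 23782 were matched by Entrez number, and 0 symbols changed. Deposited values were turned into log2(intensity + 16), which understates differences of dim genes, and quantile normalized over features with 1 symbol. Features with a mean intensity under the 25th percentile (62.3) were dropped, and the median of 18257 kept features per symbol gave 16824 genes. The number of arrays limits the precision.

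Tumour and non-tumour were compared with limma 3.58.1 in R 4.3.3 (lmFit, eBayes with an intensity trend, Benjamini-Hochberg adjusted p under 0.05 over all genes). The code was also run on simulated data with independent noise, without shared numbers or a sex difference. No result here rests on that run. The 5 genes described were given no test. The members and lists were chosen with earlier results of these data known. The genes named were the members, the 4 genes of each list with the smallest p, 12 others measured of 14 fixed by name, and the 3 nearest profiles of each member spanning over 2 log2 units. Akt2 was named as well, as a gene without overlap. Alternatives were the deposited scale, median centring, pseudocounts of 1 and 64, no filter or the 50th percentile, the brightest feature, no trend, the number as a block, each array left out and, chosen after seeing the data, normalization over all features.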

Additional observations from a re-analysis of the deposited data

How the results depend on the processing

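Igf2bp3 kept a positive difference under every alternative tried, from 2.08 with a pseudocount of 64 to 3.41 without non-tumour 623, and H19 did too, from 0.19 without non-tumour 483 to 2.85. Leaving out 1 array gave differences from -0.76 to 2.84 for Igf2, from 0.19 to 2.85 for H19, from -0.46 to 0.06 for Igf2bp1, from 2.19 to 3.41 for Igf2bp3 and from -0.13 to 0.62 for Igf2r. On the deposited scale the median gene stood at -0.48, and relative to it Igf2 was at 1.19, H19 at 2.07, Igf2bp1 at -0.22, Igf2bp3 at 2.85 and Igf2r at 0.51. Igf2bp1 moved by more than the replicate spread as deposited (-0.70) and with its dim feature included (0.24). The pairs of arrays ordered alike became 10 for Igf2 with Igf2bp1 and 3 for Igf2bp1 with Igf2bp3 as deposited. There limma called 58 genes over the array and 2 of the pathway lists, Gpc3 and Afp, where its prior outweighed the genes' own spread; the other alternatives called 0 of either, with 202 to 1031 genes higher and 80 to 713 lower at an unadjusted p under 0.05 when 1 array was left out.

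The numbers shared by both groups were checked for pairing. Deviations from the group means correlated across genes at 0.29 for number 405 and at -0.01 for number 483, and the other pairs of samples from -0.34 to 0.25. Neither these values nor the labels settle whether a number stands for 1 animal, and the comparison was made without pairing. With the number as a replicate block the differences were 0.89 for Igf2, 1.71 for H19, -0.38 for Igf2bp1, 3.34 for Igf2bp3 and 0.79 for Igf2r, and 0 genes were called. No array gives a depth, and the dimmest values, such as Igf2 in tumour 405, have no stated background to be set against.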

Other observations

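Igf2os and Airn, the antisense RNAs of the Igf2 and Igf2r loci, were chosen after their values were seen. Igf2os had intensities of 86.2, 176 and 86.7 in tumour 405, 483 and 616, against 297, 137 and 162 in non-tumour 405, 483 and 623. The groups overlapped, and normalized means were 7.25 ± 0.18 log2 units in tumour and 7.50 ± 0.57 in non-tumour (SD, n = 3 each). Its profile was close to that of Igf2bp1, from which it differed by 0.060 log2 units per array on average, and 0.25% of genes were nearer to Igf2bp1. From Igf2, whose locus it shares, it differed by 1.72 per array, and 5.77% of genes were nearer. Igf2os ordered 11 of the 15 pairs of arrays as Igf2bp1 did and 10 as Igf2 did. Igf2os and Igf2bp1 lay at like intensities and spanned 1.13 and 1.08 log2 units, and a distance not scaled to span favours such genes. Igf2bp1 ordered 13 of the 15 pairs as the array medians did as deposited, but 7 after quantile normalization, the scale of these distances. A link between these genes was not tested. Airn, which silences the paternal Igf2r allele in mice, lay at 7.67, 7.60 and 6.84 log2 units in tumour and at 7.77, 7.47 and 7.17 in non-tumour. Airn and Igf2r ordered 8 of the 15 pairs of arrays alike.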
